A study of Mus musculus with 18 samples.

Results

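Avil and Car6 are 2 of the 20207 genes listed for mouse NIH3T3 fibroblasts under proteotoxic stress. They were chosen by their measured levels in these same libraries, which were low in unperturbed cells and high after 405 min of tunicamycin (Tun). Their values at that time point are therefore given as a description, with no test. In these cells Avil rose from a mean of 1.34 to 101.8 CPM (read counts scaled to a common library size), and Car6 from 2.14 to 113.2 CPM. The rise was not confined to the late time point, since both were also called higher at 45 min of Tun, and Avil at 135 min of heat shock (HS).

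mRNA was sequenced from 18 samples in 6 groups of 3, all from NIH3T3 cells, an established line of mouse fibroblasts. Every sample, controls included, stably expressed a destabilizing domain (DD) derived from FKBP and fused to superfolder GFP, in cells sorted for high fluorescence, and was kept in the ligand Shield-1, which holds the domain folded. The control 0min group was otherwise unperturbed. The HS 45min and HS 135min groups were moved to a raised temperature, and the Tun 45min, Tun 135min and Tun 405min groups received tunicamycin, with no HS group at 405 min. The replicates are separate samples in the labels, which do not say whether each was its own culture, so p-values measure the spread between these samples. The control was taken at 0 min only, so time in culture and time in the drug cannot be told apart. The files held 33415592 to 66478268 reads on genes per sample, and 3 reads, taken as the floor, corresponded to 0.0451 to 0.0898 CPM by the library total, a limit that covers counting error only. Genes that define fibroblasts were present in every group, with reads for 11 of 11 listed markers, though Lum was near the floor at Tun 405min.

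Tunicamycin blocks N-linked glycosylation, so that proteins entering the endoplasmic reticulum (ER) misfold. The ER kinase PERK then favours translation of the transcription factor ATF4, which induces a further factor, CHOP, encoded by Ddit3. Advillin, the product of Avil, is an actin-binding protein of the gelsolin and villin family, known mainly from sensory neurons. Carbonic anhydrase VI, the product of Car6, is the secreted member of the carbonic anhydrases, enzymes that interconvert carbon dioxide and bicarbonate, and is known mainly from salivary glands. Both carry older names, DOC6 for Avil and DOC1 for Car6, given to genes found downstream of CHOP.

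Avil lies on the forward strand of chromosome 10 (chr10:126437765-126458050, build mm9), and its longest annotated transcript has 20 exons and 3033 bases. Car6 lies on the reverse strand of chromosome 4 (chr4:149561125-149575244), and its longest transcript has 8 exons and 1567 bases. Car6 has a second protein-coding transcript that starts inside the gene, at position 149572579. Avil too has protein-coding transcripts that start well inside the gene, at positions 126440057 and 126440191. The counts per gene do not separate the forms of either gene. No other listed gene overlaps either one. The 250 bases before the RefSeq start of Avil (chr10:126437515-126437764, mm9, forward strand) are shown because they hold the single match to a stress motif found for the 2 genes, with the match in capitals.

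Avil promoter: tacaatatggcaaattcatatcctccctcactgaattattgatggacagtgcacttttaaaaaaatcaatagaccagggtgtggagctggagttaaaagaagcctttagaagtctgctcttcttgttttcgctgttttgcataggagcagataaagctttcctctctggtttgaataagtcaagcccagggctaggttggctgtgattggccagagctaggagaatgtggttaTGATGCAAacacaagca

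The capitals mark TGATGCAA, a match to TGATGNAA, the core of elements bound by pairs of C/EBP and ATF factors. It lies 17 to 10 bases before the start (chr10:126437748-126437755). Searched on both strands of windows running from 250 bases before to 50 bases after a start, TGATGNAA occurred in 3.97% of all 32851 RefSeq windows. TGACGTG occurred in 2.01%, the ER stress response element in 0.119% and a heat shock element of 3 units in 0.603%. None of the 4 was found in the RefSeq window of Car6 or in the windows at its annotated transcript starts, and Avil had only the match shown. The windows at the Avil starts at 126440057 and 126440191 held no match. A match describes letters in a window and does not show that a factor binds there.

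In control cells, Avil stood at 1.53, 1.27 and 1.23 CPM and Car6 at 1.73, 2.11 and 2.58 CPM in replicates 1, 2 and 3. These levels rest on 54 to 71 reads for Avil and 69 to 118 reads for Car6, all well above the floor. The genes were therefore low but not silent, since the control RPKM (reads scaled by gene length and library size) of Avil lay at percentile 46.8 of all listed genes, and that of Car6 at percentile 52.7. CPM values here share 1 scaling over all 18 libraries, whereas the log2 fold changes below come from fits of 2 groups at a time.

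At 405 min of Tun, Avil reached 100.3, 105.2 and 99.9 CPM, from 5562 to 6367 reads. Car6 reached 114.6, 104.0 and 120.9 CPM, from 5910 to 7277 reads. All 3 libraries of either gene lay above each of the other 15 libraries. The mean of Avil was 101.8 ± 2.97 CPM (SD, n = 3) against 1.34 ± 0.164 in control, a ratio of 75.7. The mean of Car6 was 113.2 ± 8.54 CPM (SD, n = 3) against 2.14 ± 0.424, a ratio of 52.9. The fitted log2 fold changes were 6.27 (standard error 0.161) for Avil and 5.75 (standard error 0.189) for Car6, the ranks 15 and 20 from the top among the 12836 genes tested. At that time point 23.6% of genes tested were called higher than control and 23.7% lower, at an adjusted p under 0.05, and nothing is read from these shares about genes chosen for this rise. Against Tun 45min the log2 fold change at 405 min was 4.49 for Avil and 3.63 for Car6, and against Tun 135min it was 5.44 and 5.16.

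**Figure D1:**
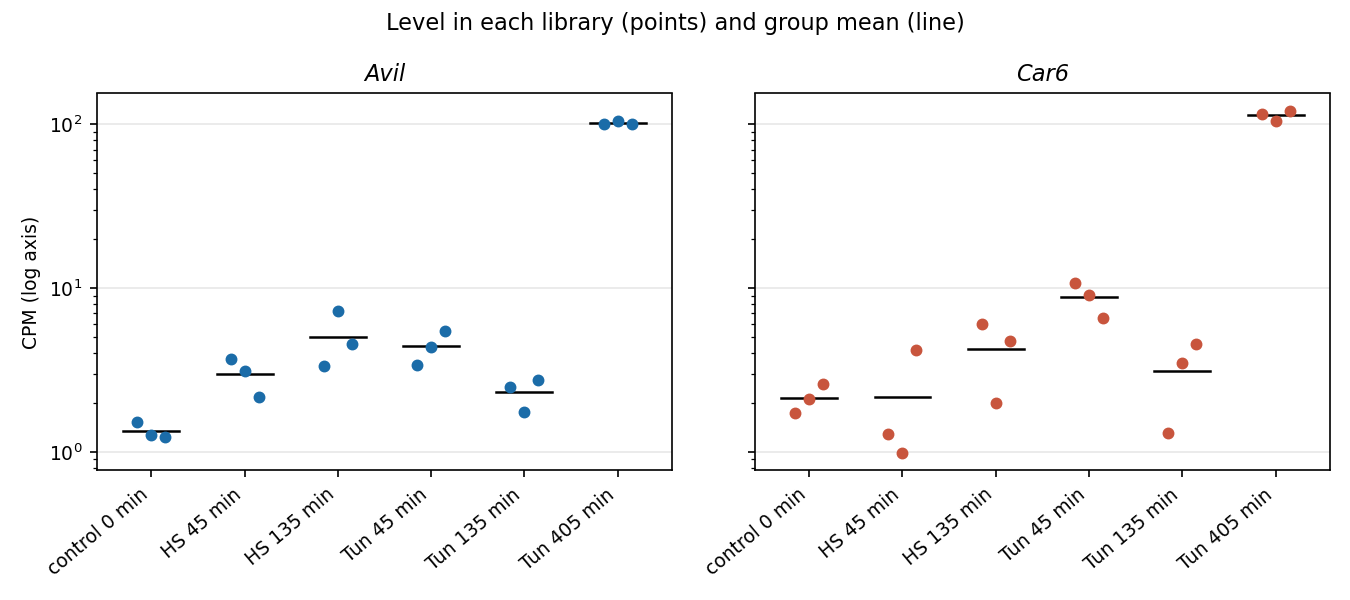
Level of Avil (left) and Car6 (right) in CPM on a log axis, for each of the 18 libraries (points, in replicate order within a group) and as the mean of each group (line). The 3 libraries at 405 min of Tun lie between 99.9 and 120.9 CPM, and all others lie below 11 CPM, with a smaller rise at 45 min of Tun.

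The earlier rise was seen at 45 min of Tun. Avil had 3.39, 4.38 and 5.47 CPM there, and Car6 had 10.7, 9.09 and 6.59 CPM. Every one of these libraries exceeded every control library, and the replicate highest for Avil was the lowest for Car6. The share of all genes whose libraries separate in this way was not counted, for this or any other comparison. Separation of libraries is therefore given as a description only. The log2 fold change over control was 1.72 for Avil (standard error 0.227, adjusted p = 0.00924) and 2.06 for Car6 (standard error 0.257, adjusted p = 0.00828, from the quasi-likelihood test of edgeR after Benjamini-Hochberg correction over all genes tested). Both genes were called, against a background of 6.32% of genes called in this comparison. The choice of genes rested on the same control libraries, so these tests are not wholly separate from it. The call for Avil was lost, at adjusted p = 0.0567 to 0.0648 (edgeR), without Tun 45min replicate 2 or without control replicate 2 or 3. That for Car6 was lost without Tun 45min replicate 2 (adjusted p = 0.0526, edgeR). Of all genes, 0.421% were called without Tun 45min replicate 2, 0.802% without control replicate 2 and 0.756% without control replicate 3.

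By 135 min of Tun both genes were lower again. Avil had 2.47, 1.76 and 2.73 CPM, which lay above all control libraries and below all those at 45 min. Car6 had 1.31, 3.49 and 4.54 CPM, which overlapped control and lay below all those at 45 min. Against control, the log2 fold change was 0.79 for Avil (standard error 0.269, adjusted p = 0.193) and 0.55 for Car6 (standard error 0.435, adjusted p = 0.53, edgeR), so neither was called, where 0.132% of all genes were. Against Tun 45min, it was -0.92 for Avil (standard error 0.256, adjusted p = 0.183) and -1.49 for Car6 (standard error 0.441, adjusted p = 0.199, edgeR), again without a call, where 0.249% of all genes were called. The 95% intervals of these 2 differences ran from -1.42 to -0.42 and from -2.35 to -0.62. The DESeq2 Wald test called both lower than at 45 min (adjusted p = 0.0343 for Avil and 0.02 for Car6, DESeq2 with Benjamini-Hochberg adjustment). It called 4.79% of all genes there.

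Under HS, Avil was called at 135 min and Car6 at neither time, and the difference between the 2 genes was not tested. After 45 min of HS, Avil had 3.69, 3.12 and 2.15 CPM, all above control, and Car6 had 1.28, 0.983 and 4.2 CPM, on both sides of it. The log2 fold change was 1.15 for Avil (standard error 0.322, adjusted p = 0.228) and 0.02 for Car6 (standard error 0.56, adjusted p = 0.988, edgeR). Here edgeR called 0 of all genes (0.0%), although 2488 genes had an unadjusted p under 0.05. DESeq2 called 477 (3.72%), Avil among them (adjusted p = 0.0379). Without HS 45min replicate 3, in which Car6 was high, edgeR called 5851 genes (45.6%). Avil then stood at a log2 fold change of 1.34 (adjusted p = 0.0056, edgeR) and Car6 at -0.92, now called lower (adjusted p = 0.0415, edgeR).

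After 135 min of HS, Avil had 3.35, 7.25 and 4.56 CPM, all above control, and was called higher (edgeR, adjusted p = 0.0236), where 8.02% of all genes were called. The log2 fold change was 1.91, with a standard error of 0.353. Leaving out HS 135min replicate 3 or any 1 of the 3 control libraries ended that call, with adjusted p from 0.0511 to 0.13 (edgeR). Without HS 135min replicate 3, 0.0935% of all genes were called. Without control replicate 1, 2 or 3, the share was 4.35%, 0.164% or 0.0857%. Car6 had 6.03, 1.98 and 4.78 CPM, so that replicate 2, the highest for Avil, fell within the range of control. Its log2 fold change was 0.996 (standard error 0.424, adjusted p = 0.162, edgeR). Without HS 135min replicate 2 it was 1.37 and called (adjusted p = 0.018, edgeR), where 9.94% of all genes were called.

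The 2 stresses were also set against each other at matched times. At 45 min, Car6 was lower under HS than under Tun in all libraries, with a difference of -2.04 on the log2 scale (standard error 0.584, adjusted p = 0.142, edgeR). The libraries of Avil overlapped, with a difference of -0.56 (standard error 0.296, adjusted p = 0.27, edgeR), while 0.203% of all genes were called. At 135 min, Avil was higher under HS in all libraries, with a difference of 1.09 (standard error 0.358, adjusted p = 0.154, edgeR). Those of Car6 overlapped, with a difference of 0.42 (standard error 0.556, adjusted p = 0.735, edgeR), while 2.35% of all genes were called. None of the 4 differences passed the threshold in edgeR. DESeq2 called the difference of Car6 at 45 min (adjusted p = 0.0121) and that of Avil at 135 min (adjusted p = 0.047). It called 9.02% of all genes at 45 min and 10.1% at 135 min.

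**Figure D2:**
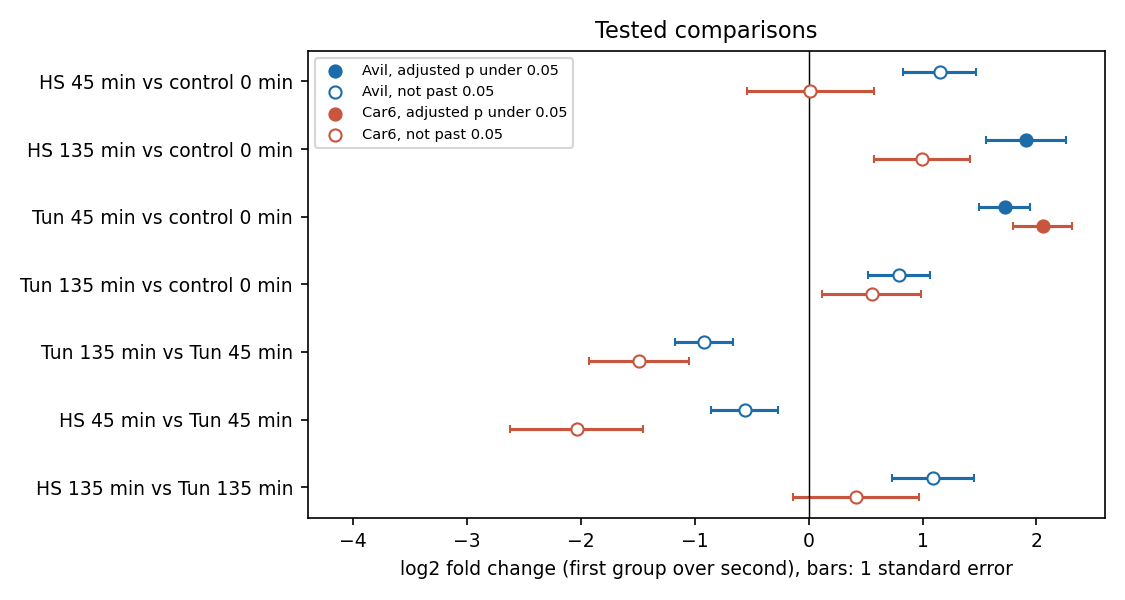
Log2 fold change of Avil (blue) and Car6 (red) in the 7 comparisons that were tested, first group over second, with bars of 1 standard error. Filled points, for both genes at 45 min of Tun and for Avil at 135 min of HS, passed an adjusted p of 0.05 in edgeR.

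In order of mean level, Avil ran from control through Tun 135min, HS 45min, Tun 45min and HS 135min to Tun 405min. The libraries of Tun 135min, HS 45min, Tun 45min and HS 135min overlapped between neighbours in that order. Car6 ran from control through HS 45min, Tun 135min and HS 135min, all with overlaps, to Tun 45min and then Tun 405min, neither of which overlapped the group below it. By mean RPKM, HS 135min (1.22) and Tun 45min (1.32) changed places for Avil, as did control (1.34) and HS 45min (1.28) for Car6. Per length of transcript, Car6 was the higher of the 2 at 405 min of Tun, with 67.6 ± 5.76 RPKM (SD, n = 3) against 27.4 ± 0.772 RPKM for Avil. The ratio of Car6 to Avil in RPKM was 2.47 there (range 2.19 to 2.68), and ran from 0.605 to 7.01 in the other libraries, where Avil exceeded Car6 in 3.

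The spread between replicates had a direction that the 2 genes did not share. Of the spread within groups over all genes, 67.6% lay on a single axis, on which genes with a higher GC content in their transcript tended to have lower weights (Spearman rho = -0.70 over 12542 genes, which do not vary independently). The weight of Avil lay at percentile 19.0 and that of Car6 at percentile 92.5, with GC contents of 54.8% and 49.5% against a median of 50.5%. In 6 of 6 groups the library lowest on this axis was also the lowest for Car6, and in 5 of 6 the library highest for Car6 was the lowest for Avil. Both genes helped to define the axis, so these are descriptions. With an offset for GC content fitted in each library, an alternative chosen after seeing the data, Avil at 135 min of HS had a log2 fold change of 1.81 (adjusted p = 0.00765) and Car6 1.11 (adjusted p = 0.0553, edgeR), and no call of either gene changed in any tested comparison.

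**Figure D3:**
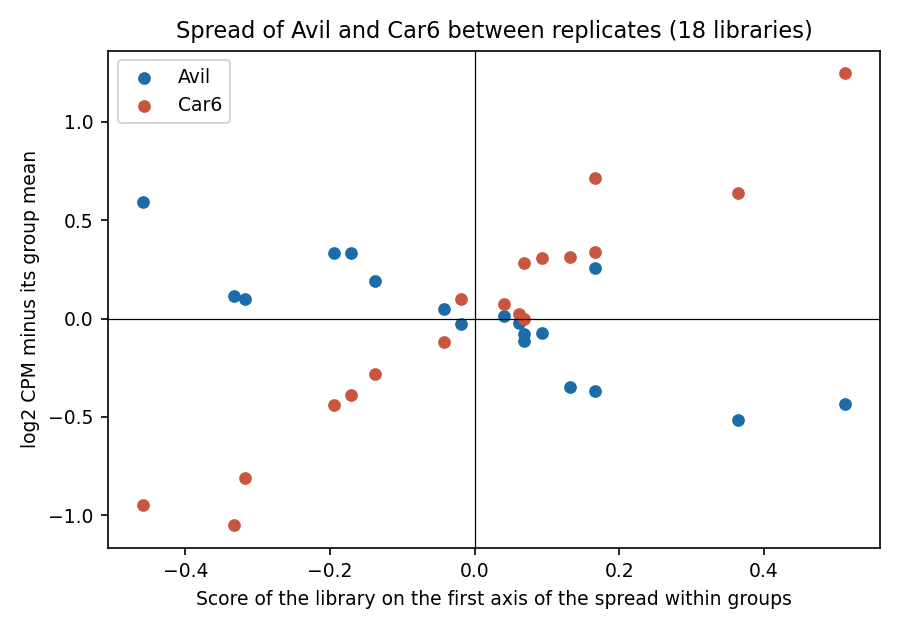
Deviation of Avil (blue) and Car6 (red) from their group mean in log2 CPM, against the score of each of the 18 libraries on the first axis of the spread within groups. Car6 runs upward and Avil downward along the axis, which holds 67.6% of that spread.

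Genes of the PERK, ATF4 and CHOP arm were measured in the same libraries from a list of 12, of which 11 were tested. At 405 min of Tun, 9 of the 11 were called higher and 1 lower (23.6% and 23.7% of all genes), with a median log2 fold change of 2.13 against -0.01 over all genes. Atf3, a stress-induced transcription factor, rose by 6.52 on the log2 scale (standard error 0.179), from 1.03 to 92.9 CPM. Ddit3, which encodes CHOP, rose by 5.21 (standard error 0.185). Chac1, which degrades glutathione, rose by 3.35, and Trib3, a pseudokinase induced by CHOP, by 3.11. Bcl2l11, a pro-apoptotic gene named after its value was seen, was the member called lower, by -1.62. The mean of 8 of the 11 genes was lower at 135 min than at 45 min of Tun and highest at 405 min, which is also the course of Avil and Car6. Of these 8, 7 were called higher at 45 min, while Eif2ak3 barely moved before 405 min (28.5, 28.8 and 27.7 CPM in control and at 45 and 135 min). The share of all genes with this course was not counted. Over all genes, 521 were called higher than control at 45 min of Tun, 16 at 135 min and 3035 at 405 min. At 45 min of Tun 8 of the 11 were called higher, where 6.32% of all genes were called in either direction, and at 135 min of Tun 1, where 0.132% were. At 135 min of HS 6 were called higher, where 8.02% of all genes were called, while edgeR called no gene at all at 45 min of HS.

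Ddit3 lies 269799 bases from Avil on chromosome 10. Its means were 71.9 CPM in control, 188 and 360 at 45 and 135 min of HS, and 542, 208 and 2625 at 45, 135 and 405 min of Tun. By mean CPM of Ddit3, HS 45min (188 ± 48.0, SD, n = 3) came before Tun 135min (208 ± 69.7). In the same way, HS 135min (360 ± 137) came before Tun 45min (542 ± 138). Both are the reverse of the order by mean CPM of Avil, whose libraries overlapped in both pairs. Neither order of Ddit3 was tested, and the means of its first pair lay within 1 SD of each other. The second pair depends on the scaling, since Avil was lower at HS 135min than at Tun 45min by RPKM, and its log2 fold change over control was 1.70 against 1.83 with total counts in place of TMM. Across the 18 libraries, Pearson's r of log2 CPM with Ddit3 was 0.944 for Avil and 0.843 for Car6. Among the genes tested, Ddit3 ranked 61 by r with Avil and 348 by r with Car6. Over the 15 libraries other than Tun 405min, r with Ddit3 was 0.910 and 0.430, and r between Avil and Car6 fell from 0.889 to 0.278. These values are descriptions, since the points share their groups, and the axis described above lies among them.

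**Figure D4:**
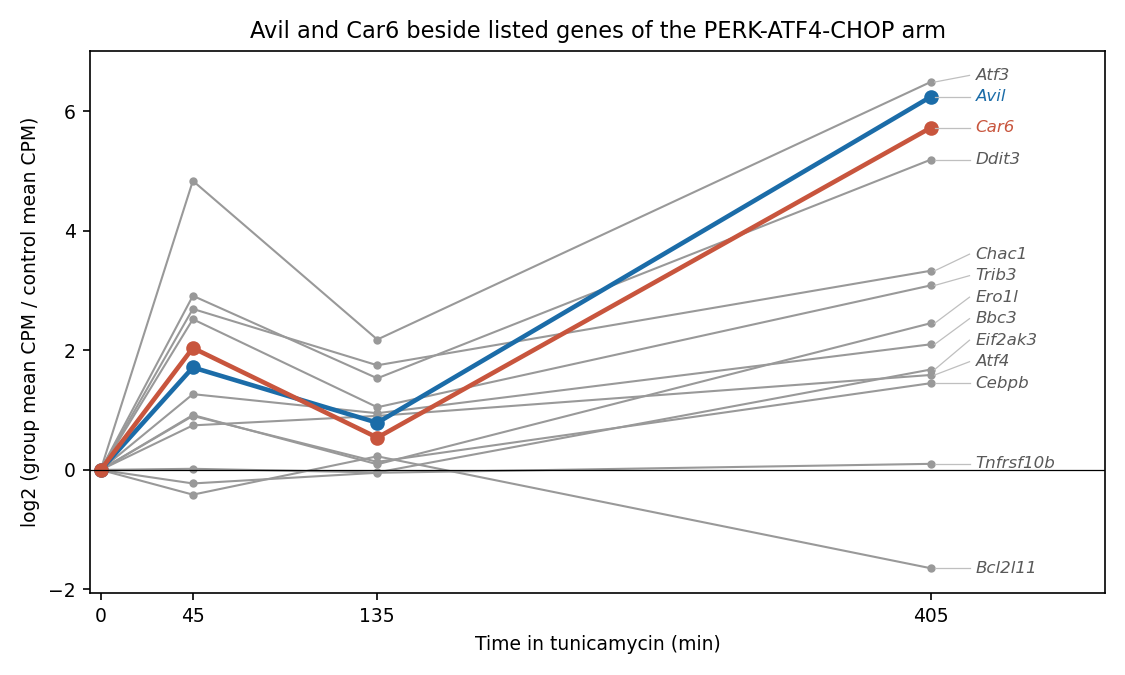
Mean CPM at 45, 135 and 405 min of Tun over mean CPM in control, on a log2 scale, for Avil (blue), Car6 (red) and the 11 listed genes of the PERK, ATF4 and CHOP arm that were tested (grey). Avil, Car6 and 8 of the 11 peak at 405 min with a dip at 135 min, and Avil and Car6 end between Atf3 (6.49) and Ddit3 (5.19).

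The genes whose log2 CPM followed Avil most closely over the 18 libraries were Cpox (r = 0.985), Gdap1l1 (0.982), Phkg2 (0.980), Ccdc134 (0.980) and Atp2a3 (0.976). Cpox encodes an enzyme of haem synthesis and Atp2a3 a calcium pump of the ER. Over the 15 libraries without Tun 405min, on which Avil was chosen, r was 0.929, 0.887, 0.809, 0.829 and 0.833 in the same order. Those that followed Car6 were Dyrk4 (0.966), Got1 (0.966), Xbp1 (0.965), Plce1 (0.964) and 1700013F07Rik (0.956), with r from 0.802 to 0.938 without Tun 405min. Xbp1 encodes the transcription factor of the IRE1 arm of the ER stress response, and Got1 the cytosolic aspartate aminotransferase. Odz4, whose synonyms include Doc4, was looked up after its name was seen to belong with DOC1 and DOC6. It had 11.2 CPM in control and 42.5 at 405 min and was called higher, by 1.95 on the log2 scale (adjusted p = 0.00101 in edgeR, standard error 0.287).

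Relatives of the 2 genes did not share the size of their rise. Of 15 other listed carbonic anhydrases, 8 were tested at 405 min of Tun, 2 were called higher and 1 lower, beside 23.6% and 23.7% of all genes tested, so the share was near the background. Without control replicate 1 the count called was 5 of 8, where 62.4% of all genes were called. Car7 had a log2 fold change of 2.57 (0.166 to 1.003 CPM), Car11 one of 1.81 (1.28 to 4.40 CPM) and Car10 one of -2.18 (0.384 to 0.0782 CPM). The carbonic anhydrase with the highest CPM in control was Car13, a cytosolic form, at 42.8 CPM against 37.0 at 405 min, and it was not called. Of 10 SLC4 bicarbonate transporters, which move the product of these enzymes across membranes, 7 were tested. Slc4a11 (1.13) and Slc4a10 (1.12) were called higher, and Slc4a7 (-0.78), Slc4a4 (-0.74) and Slc4a8 (-0.73) lower. These 5 of 7 stand beside 47.3% of all genes called in either direction. They numbered 3 without Tun 405min replicate 1 or 2, where 41.7% and 32.4% of all genes were called. With 1 fit of all groups they numbered 2, where 32.3% of all genes were called.

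Of 7 other members of the gelsolin and villin family, 5 were tested and 1 was called, beside 47.3% of all genes in either direction. The count was 2 with total counts or the GC offset, where 46.3% and 53.1% of all genes were called. Gsn, gelsolin itself, fell from 669 to 378 CPM, or by -0.80 on the log2 scale (adjusted p = 0.00153 in edgeR, standard error 0.129). Capg, another capping protein of the family, had 97.3 and 99.2 CPM. Villin itself, Vil1, had too few reads to be tested.

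The genes nearest to Avil and Car6 moved far less than they did. Ctdsp2, which ends 734 bases before Avil, was called lower at 405 min by -0.53, and Tsfm, a mitochondrial translation factor gene that begins 1338 bases after Avil, was called higher by 1.11. Mettl1, a tRNA methyltransferase gene, was called higher by 0.97. Xrcc6bp1, Lrig3 and Cyp27b1 were not called, with log2 fold changes of 0.40, 0.13 and 0.61. Beside Car6, the sugar transporter gene Slc2a5 was called lower by -2.85, from 0.269 to 0.0358 CPM, and Gpr157 by -0.93. Eno1, whose counts are uncertain because the near-identical Gm4735 overlaps it, and Rere were not called, and Slc2a7 and Gm4735 were not tested. The called neighbours were 3 of 6 tested for Avil and 2 of 4 for Car6, near the 47.3% of all genes called. Without control replicate 1 they numbered 5 of 6 and 4 of 4, where 62.4% of all genes were called, and without Tun 405min replicate 2, 1 of 4 for Car6, where 32.4% were.

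**Figure D5:**
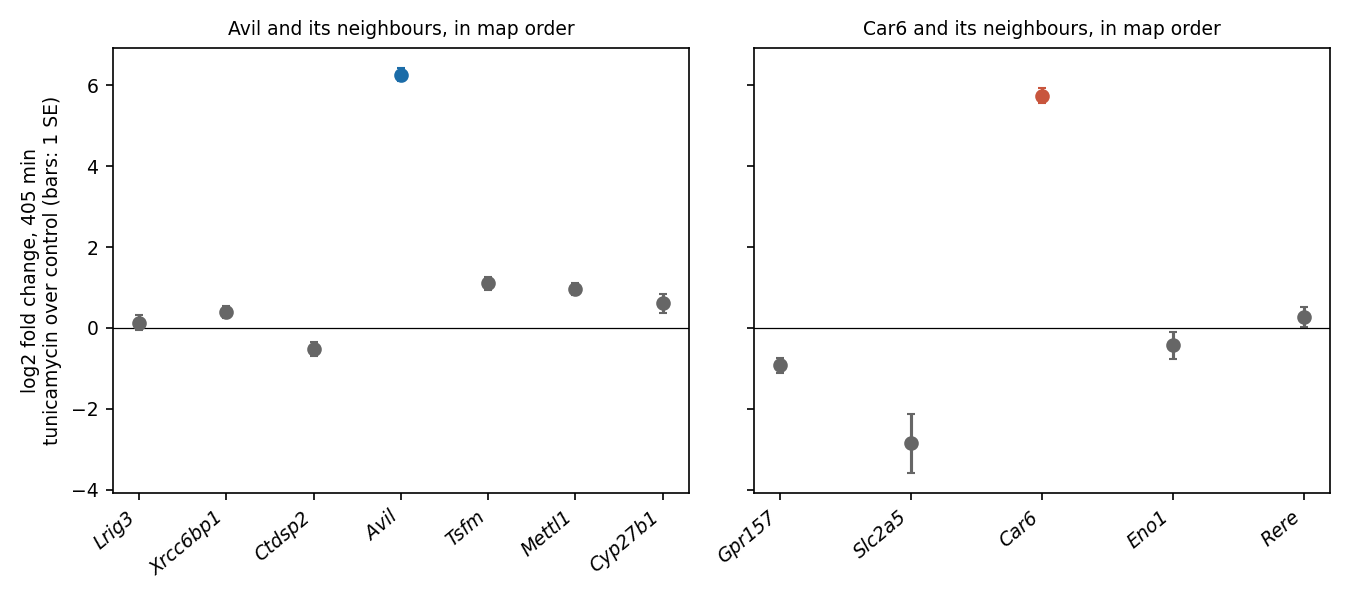
Log2 fold change at 405 min of Tun over control for Avil (left, blue), Car6 (right, red) and their tested neighbours among the 3 nearest genes on either side (grey), in map order with equal spacing, with bars of 1 standard error. Neighbours lie between -2.85 and 1.11, against 6.27 for Avil and 5.75 for Car6.

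Markers of the cell types in which the genes are best known were mostly too low to test. Of 18 sensory neuron markers, 7 were tested at 405 min, 3 were called higher and 1 lower, and the 4 called of 7 stand beside 47.3% of all genes. Prph had a log2 fold change of 3.31 (0.0381 to 0.375 CPM), Tubb3 one of 2.07 (5.84 to 24.1 CPM), P2rx3 one of 0.62 and Gfra2 one of -0.71. The control mean of Prph lay below the floor of 3 reads, and its next highest group mean was 0.153 CPM at HS 135min. Prph may thus have passed the read filter only through the group in which it was called higher. When at least 1 read was required in every sample, 3 genes of the list were called, where 46.8% of all genes were. Calca and Tac1, which encode sensory neuropeptides, had no read in any library. The summed level of the list ran from 67.5 to 82.5 CPM in control and from 96.1 to 101.5 CPM at 405 min, with Runx1, P2rx3 and Tubb3 as its main parts.

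Of 7 markers of tuft cells, an epithelial type that also expresses Avil, 2 were tested, and neither Dclk1 (adjusted p = 0.561) nor Alox5ap (adjusted p = 0.266, edgeR) was called. The sum of the list was 23.7 to 28.9 CPM in control and 24.1 to 24.7 CPM at 405 min. The salivary gland list of 7 had no gene with enough reads to test, Pip, Smr3a and Dcpp1 had none at all, and its sum stayed between 0.0145 and 0.17 CPM over all libraries. Of the 11 fibroblast markers, 8 were called lower at 405 min, where 23.7% of all genes were. They were led by Lum (-4.11, from 1.46 to 0.0808 CPM, near the floor), Pdgfra (-2.61), S100a4 (-2.50) and Pdgfrb (-2.15). In bulk samples, fewer cells of a type and less RNA per cell cannot be told apart, and the part of these shifts in the levels of Avil and Car6 was not tested.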

How the data were processed

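mRNA-seq was analysed from 18 samples (6 groups of 3, grouped by their labels). The authors used DNAnexus to align reads to mm9 and to count them per RefSeq gene. Aligner and counter are not given in the sources used here. The authors deposited an estimated count per gene, not normalized, with 17.7% to 23.2% of counts under 1000 not whole, and an RPKM value made from it. Deposited Z-scores and RMS-scaled values were not used. Strandedness of the libraries is not given in the sources used here.

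Expected counts were rounded and tested with edgeR 4.0.16 (R 4.3.3): TMM, filterByExpr over all 18 samples (12836 genes), quasi-likelihood test of 2 groups at a time, Benjamini-Hochberg adjustment and a threshold of 0.05. A standard error is the log2 fold change divided by the square root of its F statistic, and 95% intervals assume normal errors. CPM used TMM over 18 samples, and correlations log2 CPM with a prior count of 2. The script was tested on simulated data. Replicates were compared by chi-square, and every pair differed by more than sampling noise. DESeq2 1.42.0 and the other alternatives are given in the closing section. RefSeq promoters (GRCm38) were located in mm9 by exact match, and transcripts are from GENCODE on mm9.

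The members and lists were chosen with earlier results of these data known. Genes named were the 2 members, up to 4 called genes per list by size of change, the 3 nearest genes on either side, the 5 most correlated genes per member, and the 5 largest folds among genes under 1 CPM in control, at least 2 CPM at 405 min and with a fold of 8 or more.

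Replicate numbers come from the labels. Samples with the same number deviated together (correlations 0.201 to 0.291) only for Tun 135min against control. There the fit with the replicate block gave Avil 0.78 (adjusted p = 0.122) and Car6 0.42 (adjusted p = 0.431, edgeR), with no change of call. That fit called 0.0% of all genes.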

Additional observations from a re-analysis of the deposited data

How the results depend on the processing

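The log2 fold changes of Avil and Car6 kept their direction under every alternative tried, apart from Car6 at 45 min of HS, which was 0.02 in the main analysis, -0.063 with total counts in place of TMM and -0.26 with a replicate block. With the replicate block, the calls of Avil at 135 min of HS (1.84, adjusted p = 0.14) and of Avil and Car6 at 45 min of Tun (1.70, adjusted p = 0.103, and 2.04, adjusted p = 0.102, edgeR) were lost. The block left 0.0% of all genes called at 135 min of HS, against 8.02% in the main analysis. At 45 min of Tun it left 0.195%, against 6.32%. Correlations of same-numbered samples with control had no common sign, from -0.35 to 0.208 for HS 135min and from -0.315 to 0.179 for Tun 45min. They cannot decide whether same-numbered samples were paired, since 67.6% of the spread within groups lay on a single axis. The labels do not say either, so these 3 calls depend on treating the samples as unpaired. The DESeq2 Wald test and 1 fit of all groups each called Avil at 45 min of HS (1.17 and 1.15), Car6 for HS 45min against Tun 45min (-1.99 and -2.02) and Avil for HS 135min against Tun 135min (1.11 and 1.12). In the same order, DESeq2 called 3.72%, 9.02% and 10.1% of all genes, and 1 fit of all groups 10.3%, 10.1% and 14.1%. The main analysis called 0.0%, 0.203% and 2.35%. DESeq2 alone called Avil (-0.90) and Car6 (-1.48) for Tun 135min against Tun 45min, where it called 4.79% of all genes. The cause was not tested. No other filter, size factor or GC offset changed a call of either gene.

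Leaving out 1 library at a time, the log2 fold change over control ran from 0.97 to 1.34 for Avil and from -0.92 to 0.36 for Car6 at 45 min of HS, turning below 0 without HS 45min replicate 3 (-0.92) or control replicate 1. It ran from 1.58 to 2.13 for Avil and from 0.66 to 1.37 for Car6 at 135 min of HS, and from 1.56 to 1.88 for Avil and from 1.89 to 2.24 for Car6 at 45 min of Tun. For HS 45min against Tun 45min, Car6 ran from -2.96 to -1.69. It was called without HS 45min replicate 3, where 56.0% of all genes were called, against 0.203% in the main analysis. Against control at 405 min of Tun, Avil ran from 6.19 to 6.37 and Car6 from 5.63 to 5.87.

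Counts of called genes at 405 min ran from 2 to 5 for the carbonic anhydrases, from 3 to 6 for the SLC4 transporters, from 2 to 5 for the neighbours of Avil and from 1 to 4 for those of Car6. In the main analysis they were 3, 5, 3 and 2. The share of all genes called moved as well, from 47.3% in the main analysis to between 32.4% and 62.4% when 1 library was left out. It was 32.3% with 1 fit of all groups. The carbonic anhydrase count was 5 without control replicate 1, and the SLC4 count 3 without Tun 405min replicate 1 or 2. With 1 fit of all groups the SLC4 count was 2. For the gelsolin and villin family it was 1, against 2 with total counts or the GC offset, and for the neighbours of Car6 it was 1 when at least 1 read was required in every sample. The control levels rest on 54 to 118 reads a library, which limits the precision of the smaller differences.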

Other observations

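Among all genes, 28 had a mean under 1 CPM in control, at least 2 CPM at 405 min of Tun and a fold of 8 or more, and neither Avil nor Car6 was one of them, since both lay above 1 CPM in control. H2-M10.1 had no read in control and 3.84 CPM at 405 min. The 5 largest folds with reads in control were those of Sspo (248-fold, 0.0705 to 17.5 CPM), Fgf21, a stress-induced hormone (50.9-fold, 0.569 to 29.0 CPM), Dyrk4 (47.4-fold, 0.324 to 15.3 CPM), Klf15 (40.9-fold) and Sh3tc2 (38.3-fold). These folds are descriptions of genes picked for their size.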
